A study of Rattus norvegicus with 88 samples.

Results

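Levels of 7 circadian clock genes were compared among 81 outbred rats. The genes were the period genes Per1 (ENSRNOG00000007387), Per2 (ENSRNOG00000020254) and Per3 (ENSRNOG00000018413), the output factor Dbp (ENSRNOG00000021027), the nuclear receptors Nr1d1 (ENSRNOG00000009329) and Nr1d2 (ENSRNOG00000046912), and Arntl (ENSRNOG00000014448), which encodes BMAL1. They were chosen by name and identifier, and all 7 were present among the 17252 genes of the expression table. The tissue was the infralimbic cortex (IL), a part of the medial prefrontal cortex, dissected from both hemispheres of frozen brain sections, and each library came from the polyadenylated RNA of 1 rat. The animals were Heterogeneous Stock (HS) rats, an outbred population bred from inbred founder strains, and all of them were adult, housed in groups and naïve to behavioral testing and to drugs. They comprised 40 females and 41 males in rat batches 2 (16 rats), 3 (25), 4 (24), 5 (1) and 6 (15). The labels note 7 further libraries as dropped by the authors, and these do not enter. The time of day at which each brain was collected is not given in the sources used here.

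The molecular clock is a feedback loop that most cells carry. BMAL1 pairs with CLOCK and binds E-boxes in the promoters of the period, cryptochrome, Nr1d and Dbp genes, and period and cryptochrome proteins return to the nucleus and block that activation. The proteins of Nr1d1 and Nr1d2 (REV-ERBs) repress Arntl through a motif called RORE, and DBP activates genes that carry a D-box. Transcripts of Dbp, Nr1d1 and the period genes are known to peak far from Arntl in the daily cycle. Per1 is also known to be induced quickly by neuronal activity and by glucocorticoids.

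The promoter windows that hold motifs of this loop are shown first because the genes below were read by whether they moved together or in opposition. RefSeq promoter windows of the rat assembly GRCr8, each running from 250 bases before to 50 bases after a transcript start, were found for all 7 genes, and Nr1d1 had 2. Motifs were searched on both strands as the E-box CACGTG, the E'-box CACGTT, the D-box TTATGTAA or TTACGTAA, the RORE TAGGTCA or TGGGTCA, and the cyclic AMP response element TGACGTCA. Of the 8 windows, 4 held a match, shown in capitals. None of the matches overlapped another.
Per2 (chr9:99496944-99497243, minus strand): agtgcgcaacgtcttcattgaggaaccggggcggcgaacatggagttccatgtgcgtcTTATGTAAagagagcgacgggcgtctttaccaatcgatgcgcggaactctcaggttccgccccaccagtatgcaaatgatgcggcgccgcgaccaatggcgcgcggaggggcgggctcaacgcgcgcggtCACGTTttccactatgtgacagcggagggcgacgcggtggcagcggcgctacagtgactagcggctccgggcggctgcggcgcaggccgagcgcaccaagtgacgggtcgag
Nr1d1, window 1 (chr10:84231763-84232062, minus strand): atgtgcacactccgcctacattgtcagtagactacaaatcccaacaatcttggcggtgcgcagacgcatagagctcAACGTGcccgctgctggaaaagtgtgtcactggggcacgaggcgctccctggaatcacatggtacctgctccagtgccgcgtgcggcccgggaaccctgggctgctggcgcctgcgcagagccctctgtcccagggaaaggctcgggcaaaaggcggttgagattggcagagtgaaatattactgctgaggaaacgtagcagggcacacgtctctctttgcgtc
Nr1d1, window 2 (chr10:84229405-84229704, minus strand): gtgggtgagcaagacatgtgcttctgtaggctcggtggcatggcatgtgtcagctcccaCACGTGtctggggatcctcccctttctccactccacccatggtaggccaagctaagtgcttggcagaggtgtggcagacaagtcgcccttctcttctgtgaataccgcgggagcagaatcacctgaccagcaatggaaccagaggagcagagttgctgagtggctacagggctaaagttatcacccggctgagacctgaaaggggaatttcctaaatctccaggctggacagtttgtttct
Arntl, named Bmal1 in RefSeq (chr1:176766078-176766377, plus strand): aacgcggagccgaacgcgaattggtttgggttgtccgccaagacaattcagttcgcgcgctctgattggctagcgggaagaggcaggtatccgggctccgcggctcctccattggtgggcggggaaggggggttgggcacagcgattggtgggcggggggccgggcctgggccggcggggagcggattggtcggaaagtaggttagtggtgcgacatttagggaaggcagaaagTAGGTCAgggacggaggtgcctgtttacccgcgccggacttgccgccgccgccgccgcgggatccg
In the Per2 window the E'-box began 62 bases before the start, and the D-box lay farther upstream. The Nr1d1 windows held an E'-box on the reverse strand 174 bases and an E-box 191 bases before their starts, and the Arntl window held a RORE 16 bases before its start. Over all 33469 windows of this length, 6.42% held the E-box, 4.83% the E'-box, 1.01% a D-box, 6.60% a RORE and 1.83% the cyclic AMP response element. A match describes letters only, and no match in the windows of Per1, Per3, Dbp and Nr1d2 says only that these letters are not in those windows.

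Values are given as the authors deposited them, as log2 of the upper-quartile adjusted read count plus 1. The depth recovered from the spacing of low values was 17.9 ± 3.77 M counts per library (mean ± SD, n = 81). The lowest library, male 14, had 5.98 M and the next 12.2 M. The order of the column names started over within the table, which splits the 81 libraries into 3 column stretches of 22, 16 and 43. What a stretch stands for is not stated, so it was treated as a possible technical batch. Stretch 1 held rats of batches 2 and 3, stretch 2 held 15 rats of batch 3 and 1 of batch 2, and stretch 3 held 3 rats of batch 3 and all rats of batches 4, 5 and 6. The marker lists for cell types of the cortex and its neighbours could not be matched to the table. Symbols were matched only through the identifiers that the study's supplementary tables pair with them. This does not show that the markers are absent, and the tissue label was not checked against markers here.

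All 7 genes were well above the low end of the table in every rat, and they differed in how much they varied. Dbp, a transcription factor that binds D-boxes, had a mean log2 level of 11.23 ± 0.33 (SD, n = 81), with a lowest value of 10.33, a median of 11.23 and a highest value of 11.78, a 2.72-fold range. Nr1d1, which encodes REV-ERBα, had a mean of 10.61 ± 0.35, from 9.53 through a median of 10.66 to 11.28, a 3.37-fold range. The same rat, female 27 of batch 6, was lowest for both genes. Nr1d2, which encodes REV-ERBβ, varied less, with a mean of 11.11 ± 0.18 between 10.69 and 11.52 and a median of 11.13, a 1.78-fold range. Arntl, the activating partner of CLOCK, had the narrowest spread of the 7, with a mean of 9.54 ± 0.15 between 9.21 and 9.91 and a median of 9.51, a 1.62-fold range.

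Among the period genes, which encode repressors of the loop, Per1 spread widest. Its mean log2 level was 10.75 ± 0.36 (SD, n = 81), from 9.48 in female 7 of batch 3 through a median of 10.76 to 11.45 in male 28, a 3.92-fold range. The next lowest Per1 value was 9.91, so female 7 stood apart at the low end. Per2 had a mean of 10.72 ± 0.25, from 10.02 through a median of 10.74 to 11.18. Per3 had a mean of 9.38 ± 0.30, from 8.82 through a median of 9.40 to 9.99.

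After sex, rat batch and column stretch were removed, the SD over rats was 0.35 for Per1, 0.34 for Nr1d1, 0.32 for Dbp, 0.22 for Per2 and Per3, 0.16 for Nr1d2 and 0.15 for Arntl on the log2 scale. The median of this residual SD over the 13048 genes whose mean log2 value reached 5 was 0.18. Per1, Nr1d1 and Dbp thus varied more than 87.3%, 86.3% and 83.7% of those genes, and Arntl more than 31.8%. Counting error accounted for 13.6% of the residual variance of Arntl and for 6.8% of that of Per3, and for less in the other 5 genes.

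**Figure D1:**
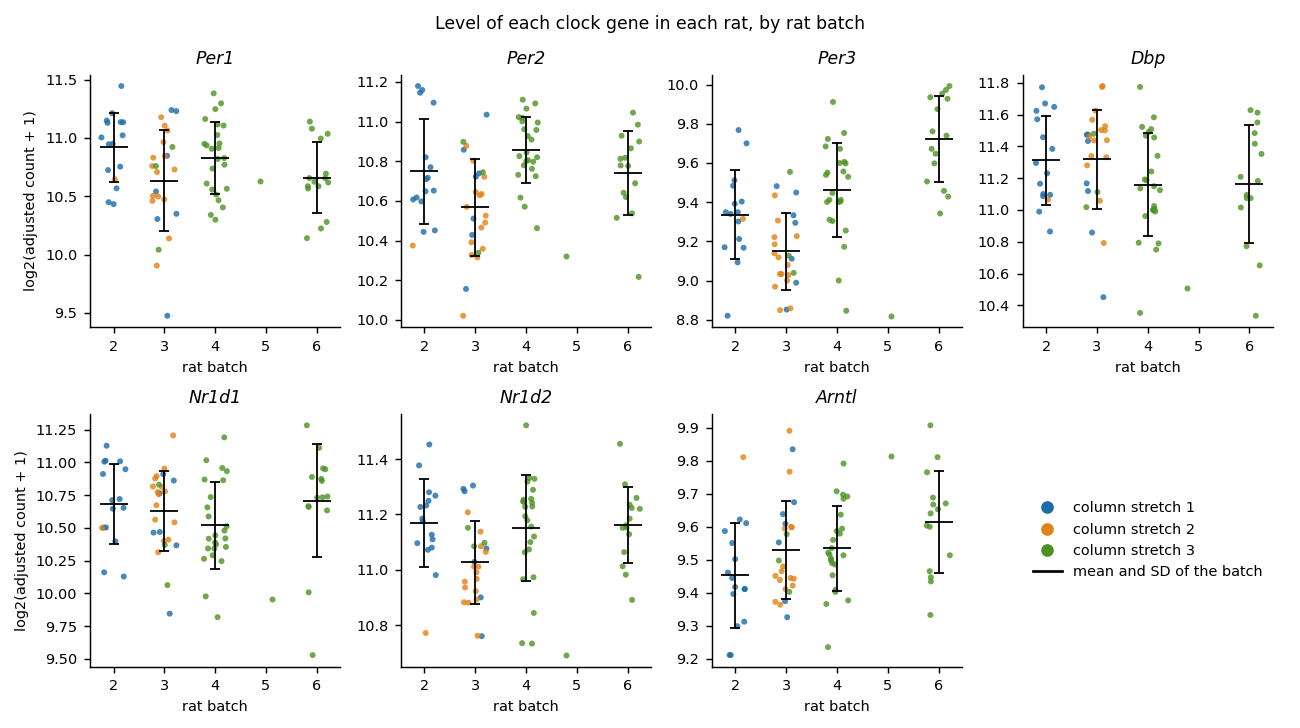
Level of each clock gene as log2(adjusted count + 1) in each of the 81 rats (points, colored by column stretch), by rat batch; black marks are the mean and SD of a batch, and batch 5 is 1 rat without an SD. Per3 is lowest in batch 3 and highest in batch 6 among the batches with more than 1 rat, while the batches overlap widely for Dbp and Nr1d1.

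The first comparison asked whether the sexes differed. The limma test with rat batch as a covariate called 34 of 17252 genes at an adjusted p under 0.05 (0.197%), and none of the 7 clock genes was among them. The smallest p-value of the 7 was that of Per1, which was 0.15 ± 0.08 (SE) lower in males on the log2 scale (unadjusted p = 0.0547, adjusted p = 0.649 in limma). Its mean was 10.80 ± 0.40 in 40 females and 10.71 ± 0.32 in 41 males, and the female mean was above the male mean in all 4 batches that held both sexes. The differences of the other 6 genes lay between 0.04 lower in males for Arntl (-0.04 ± 0.03) and 0.04 higher for Dbp (0.04 ± 0.07). The values of the sexes overlapped for every one of the 7 genes. A test of the sex by rat batch interaction called 0 of 17252 genes in limma (0%), with 531 genes at an unadjusted p under 0.05 and none of the 7 clock genes among them.

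The second comparison asked how the genes related to rat batch. With sex as a covariate and the single rat of batch 5 left out, limma called 9945 of 17252 genes between batches (57.6%), and 4 of the 7 clock genes were called, a share of the same order as that background. Per3 differed most (F = 23.01, adjusted p = 1.05e-09). Its mean log2 level was 9.15 ± 0.20 in the 25 rats of batch 3, 9.34 ± 0.23 in the 16 of batch 2, 9.46 ± 0.24 in the 24 of batch 4 and 9.72 ± 0.22 in the 15 of batch 6. The lowest, median and highest Per3 values were 8.85, 9.12 and 9.55 in batch 3, and 9.34, 9.74 and 9.99 in batch 6, so these batches overlapped only between the lowest rats of batch 6 and the highest of batch 3. The rat of batch 5 was at 8.82, a value it shared with the lowest rat of batch 2.

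Per2, Nr1d2 and Per1 were the other clock genes called between batches. Per2 was lowest in batch 3, at 10.57 ± 0.25, and highest in batch 4, at 10.86 ± 0.17 (adjusted p = 0.000615 in limma). Nr1d2 was also lowest in batch 3, at 11.03 ± 0.15, and lay at 11.15 ± 0.19 to 11.17 ± 0.16 in batches 2, 4 and 6 (adjusted p = 0.0206). This call was lost with median centring (adjusted p = 0.101) and with depth as a covariate (adjusted p = 0.0953), and Nr1d2 was the member most related to depth (r = 0.26 after the covariates, against -0.16 to -0.02 in the other 6); the part of depth in the batch difference was not otherwise tested. Per1 was lowest in batch 3, at 10.63 ± 0.44, and highest in batch 2, at 10.92 ± 0.29 (adjusted p = 0.0247). Dbp (adjusted p = 0.261), Nr1d1 (0.355) and Arntl (0.0911) did not pass.

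Rat batch and column stretch overlap in part, so each was also tested given the other. Between stretches, given batch, 2892 of 17252 genes were called in limma (16.8%) and none of the 7 clock genes. The nearest was Nr1d2, with an unadjusted p of 0.030 and an adjusted p of 0.115. Between batches, given stretch, 476 genes were called (2.76%), and Per3 was the only one of the 7 (adjusted p = 0.0225, and 0.0186 to 0.0395 over that fit and the 6 alternative settings tried). Batches were also compared within single stretches, a choice made after earlier results of these data. Within stretch 3, which holds all rats of batches 4 and 6, Per3 was 0.26 ± 0.07 (SE) higher in the 15 rats of batch 6 than in the 24 of batch 4 (adjusted p = 0.0406 in limma, with 3.46% of genes called). These rats are also part of the fit between batches given stretch, so this is no separate evidence. Within stretch 1, 0 of 17252 genes were called between batches 3 and 2 in limma (0%), with 784 at an unadjusted p under 0.05. There Per1 was 0.51 ± 0.20 lower in the 7 rats of batch 3 than in the 15 of batch 2 (unadjusted p = 0.0173), Nr1d2 was 0.16 ± 0.08 lower (unadjusted p = 0.0430), and Arntl was 0.17 ± 0.08 higher (unadjusted p = 0.0444), all with an adjusted p of 1. Per3 was 0.15 ± 0.12 lower (unadjusted p = 0.216).

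The third comparison asked which clock genes rose and fell together over the rats. After sex, batch and stretch were removed, Dbp and Nr1d1 correlated with r = 0.84 (Spearman's rho 0.83), the highest correlation among the 13047 other genes of mean log2 of at least 5, seen from either gene. A rise of 1 log2 unit in Dbp went with a rise of 0.89 ± 0.07 (SE) in Nr1d1 (adjusted p = 1.89e-17 in limma over 17251 genes). Arntl went the other way. Its correlation with Dbp was r = -0.65 (rho -0.61), the lowest with Arntl of all 13047 genes and place 17 from the bottom with Dbp. Each log2 unit of Dbp went with a fall of 0.30 ± 0.04 (SE) in Arntl (estimate -0.30, adjusted p = 2.35e-07). For both pairs the two-sided permutation p of r and of rho was 1e-05, the smallest that 100000 permutations can give, with r = 0.81 and -0.64 without the 2 rats farthest from the median of Dbp.

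Single rats are described next at the ends of the difference Dbp minus Arntl. They were picked by that difference, so their opposite levels of the 2 genes are fixed by the choice and add no support to the correlation. Female 27 of batch 6 had log2 levels of 10.33 for Dbp, 9.53 for Nr1d1 and 9.81 for Arntl, and Dbp exceeded Arntl by only 0.52 log2 units, the smallest such difference of the 81 rats. Female 7 of batch 3 had 10.45, 9.85 and 9.83, and male 32 of batch 4 had 10.35, 9.82 and 9.70. At the other end, male 38 of batch 2 had 11.77 for Dbp, 11.13 for Nr1d1 and 9.21 for Arntl, a Dbp excess over Arntl of 2.56. Male 21 of batch 2 and male 22 of batch 3 followed, with excesses of 2.44 and 2.33. The 3 rats at the low end came from 3 batches and both sexes, and those at the high end were males of batches 2 and 3.

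**Figure D2:**
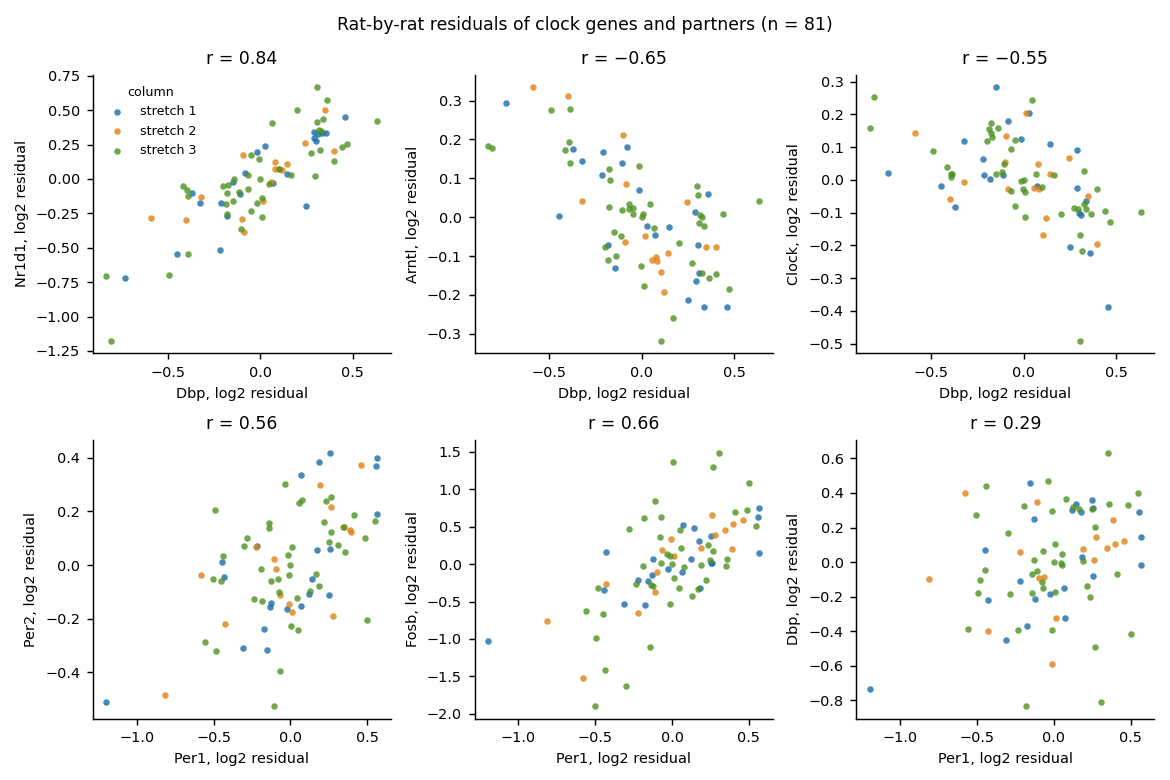
Residuals of log2 levels after sex, rat batch and column stretch in 81 rats (points, colored by stretch), for pairs of clock genes and for Dbp with Clock and Per1 with Fosb; r is Pearson's. Points rise together for Dbp with Nr1d1 (r = 0.84) and Per1 with Fosb (0.66), fall for Dbp with Arntl (-0.65) and Clock (-0.55), and scatter widely for Per1 with Dbp (0.29).

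Nr1d2 sat on the side of Dbp. It correlated with Dbp at r = 0.52 (rho 0.37, adjusted p = 8.66e-05 in limma), with Nr1d1 at 0.39 (rho 0.31, adjusted p = 0.00662) and with Arntl at -0.52 (rho -0.43, adjusted p = 1.17e-04 from the slope of Arntl on Nr1d2). Nr1d1 correlated with Arntl at -0.54 (rho -0.51, adjusted p = 7.71e-05). Nr1d1 and Nr1d2 were thus higher in rats in which Arntl was lower, as was Dbp (r = -0.65 with Arntl). Whether repression of Arntl by the REV-ERBs had a part in this was not tested. Seen from Arntl, Dbp, Nr1d1 and Nr1d2 held the places 1, 7 and 9 from the bottom of 13047 genes.

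Over all rats the period genes formed a chain, though the differences between their correlations were not tested. Per1 correlated with Per2 at r = 0.56 (rho 0.51, adjusted p = 3.06e-05 in limma) and Per2 with Per3 at 0.53 (rho 0.56, adjusted p = 2.19e-04), but Per1 with Per3 only at 0.14 (rho 0.10, adjusted p = 0.595). With Dbp, r was 0.29 for Per1, 0.33 for Per2 and 0.37 for Per3, and with Arntl it was -0.25, -0.34 and -0.21. The 2 rats farthest from the Per1 median were female 7 and female 28 of batch 3. Without them the relation of Per1 with Dbp weakened to r = 0.21 (permutation p = 0.0684), while rho over all rats was 0.28 (permutation p = 0.0127). The relation of Per1 with Arntl fell to r = -0.13 without them (permutation p = 0.260), and its rho over all rats was -0.18 (permutation p = 0.115), so it rested on these rats. The relation of Per1 with Nr1d1 was 0.38 (rho 0.42), and 0.29 without these rats (permutation p = 0.00844).

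**Figure D3:**
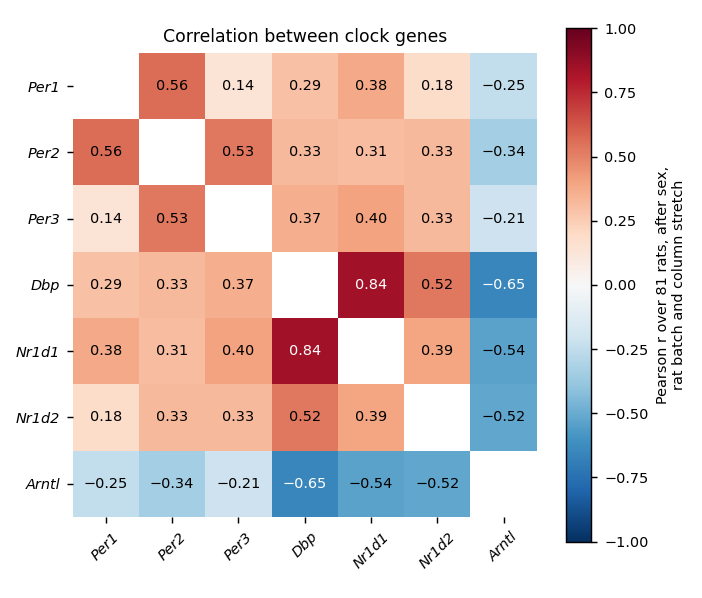
Pearson r between the clock genes over 81 rats after sex, rat batch and column stretch; red is positive and blue negative. The 15 pairs without Arntl are all positive (0.14 to 0.84) and the 6 pairs with Arntl all negative (-0.65 to -0.21).

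Over all 21 pairs the signs followed a simple pattern. The 15 pairs without Arntl were all positive, with r from 0.14 to 0.84 and a median of 0.37, and the 6 pairs with Arntl were all negative, from -0.65 to -0.21 with a median of -0.43. Over the 13047 other genes, the median r with a clock gene lay between -0.03 and 0.02. The signs were the same for Spearman's rho, without covariates and without the 2 rats farthest from the median. A first principal component of the 7 residuals held 49.4% of their variance, with Dbp (0.46), Nr1d1 (0.44) and Arntl (-0.40) as the largest loadings. A second component held 16.5% and set the period genes (-0.60 for Per2, -0.51 for Per1 and -0.30 for Per3) against Dbp (0.32), Nr1d1 (0.21) and Nr1d2 (0.22), with Arntl at -0.32.

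In the limma fits of every other gene on each clock gene, 24 of the 42 ordered pairs of clock genes were called with a positive slope and 7 with a negative one. With Dbp, 5 of the other 6 clock genes were called positive, against 9.1% of 17251 genes, and 1 negative, against 9.96%. With Nr1d1 the counts were also 5 and 1, against 8.06% and 8.09%. With Per2 they were 4 and 1, against 4.94% and 6.41%, and with Nr1d2 4 and 1, against 7.55% and 8.33%. With Per3, 4 were positive and none negative, against 8.96% and 7.61%. With Per1, 2 were positive, Per2 and Nr1d1, and none negative, against 1.85% and 1.12%. The call of Nr1d1 on Per1 was lost without covariates (adjusted p = 0.0746) and with 5 expression components as covariates (adjusted p = 0.0689). With Arntl, none was positive and 3 were negative, against 0.678% and 0.412%. The positive shares with each gene except Arntl, and the negative share with Arntl, were far above the background. The counts of the other sign were 1 or 0, too small to set against it. The genes share rats, so the pairs are not independent. The call of Per1 on Dbp (adjusted p = 0.0476) was lost without male 14, the library of lowest depth (adjusted p = 0.0565).

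**Figure D4:**
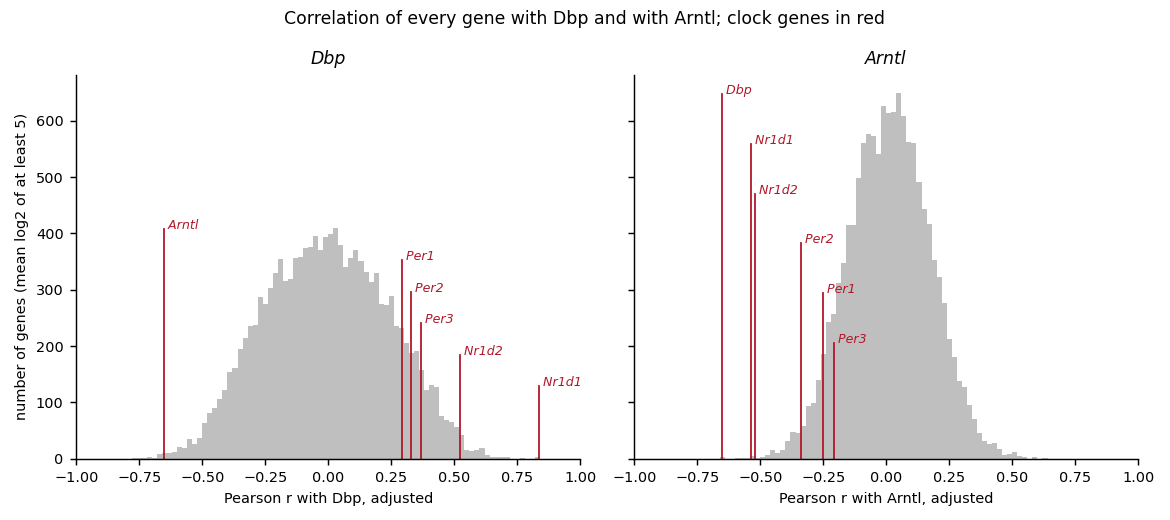
Number of genes of mean log2 of at least 5 (13047, gray) by their Pearson r with Dbp (left) and with Arntl (right) after sex, rat batch and column stretch, with the other clock genes as red lines whose height has no meaning. Nr1d1 stands at the upper end for Dbp (0.84), and Dbp at the lower end for Arntl (-0.65), outside the ranges that hold the middle 90% of genes (-0.40 to 0.40 and -0.25 to 0.28). Per1 and Per3 lie inside both ranges, and Per2 inside that of Dbp.

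The same pairs were computed within each column stretch, with sex and batch as covariates. Dbp and Nr1d1 correlated at 0.87, 0.73 and 0.84 in stretches 1, 2 and 3 (22, 16 and 43 rats), and Dbp and Arntl at -0.72, -0.69 and -0.58. Nr1d1 with Arntl was at -0.54, -0.60 and -0.51. These core pairs therefore had one sign in each stretch. Of the 15 pairs without Arntl, 14, 13 and 13 were positive, and of the 6 with Arntl, 5, 6 and 5 were negative. All of the pairs that changed sign included Per1 or Per3. Per1 with Per3 was 0.54 in stretch 1 but -0.05 and -0.07 in stretches 2 and 3, and Per1 with Nr1d2 was 0.68, 0.01 and -0.18. In stretch 1 alone the slope of Per1 on Per3 was called (adjusted p = 0.0446 in limma). Per1 with Per2 was 0.71, 0.69 and 0.31, and Per2 with Per3 was 0.78, 0.12 and 0.51, so the chain seen over all rats did not hold in each stretch. Per3 with Dbp was -0.01, 0.24 and 0.59.

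A test of whether slopes differed between stretches, added after the values within stretches were seen, called none of the 42 ordered pairs of clock genes. The smallest adjusted p was 0.104, for Per1 on Per3. With Per3 as the predictor 1541 of 17251 genes were called in this test (8.93%). With each of the other 6 clock genes, 0 genes were called by limma (0%), with 1065 to 2494 at an unadjusted p under 0.05; for single pairs the unadjusted p reached 8.08e-04 (Per1 on Nr1d2, adjusted p = 0.125). The differences between stretches in the Per1 and Per3 pairs thus did not pass the test. Within batch 3, a comparison of the slopes on Per3 between 7 rats of stretch 1 and 15 of stretch 2 called 1 gene (0.0058%), which was none of the clock genes.

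**Figure D5:**
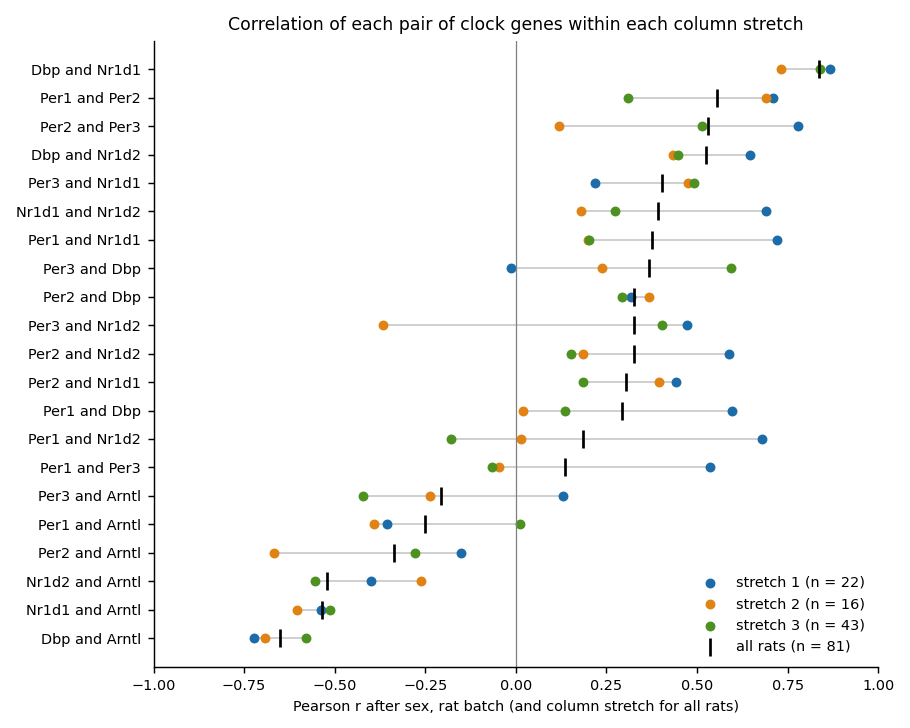
Pearson r of each of the 21 pairs of clock genes within column stretches 1 (22 rats), 2 (16) and 3 (43), after sex and rat batch, and over all 81 rats (black bar), after sex, rat batch and column stretch; gray lines join the lowest and highest stretch. Dbp with Nr1d1 and Dbp with Arntl keep to one side of 0, and the pairs whose points cross 0 include Per1 or Per3.

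Other genes of the clock were taken from a list of 17, of which 5 could be matched to the table through identifiers that the study's supplementary tables pair with symbols. Clock, the partner of BMAL1, fell as Dbp and Nr1d1 rose (r = -0.55, adjusted p = 2.98e-05, and r = -0.50, adjusted p = 2.72e-04 in limma). Its lowest, median and highest log2 levels were 10.14, 10.67 and 11.05, and the highest was in female 27, the rat of lowest Dbp. Clock with Arntl was positive but not called (r = 0.30, rho 0.36, adjusted p = 0.175). Among the other members, r with Clock was 0.24 for Per2, 0.17 for Nr1d2, 0.16 for Per3 and -0.02 for Per1, none of them called. Without covariates these values were 0.47, 0.40, 0.51 and 0.06. Clock was thus not opposed to every gene on the side of Dbp. Cry2, a cryptochrome and repressor of the loop, followed Per2 (r = 0.61, adjusted p = 2.42e-05) and Per1 (r = 0.51, adjusted p = 5.08e-04) more than Dbp (r = 0.32, adjusted p = 0.0336); the difference between these correlations was not tested. Bhlhe41, which encodes a repressor of E-box activation, rose with Dbp (r = 0.50, adjusted p = 2.16e-04) and Nr1d1 (r = 0.49, adjusted p = 4.25e-04).

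Counted over the list, 3 of the 5 were called with Dbp, against 19.1% of all genes, and 3 with Nr1d1, against 16.1%, in each case 2 positive and 1 negative. Cry2 was the 1 called with Per1, against 2.97% of all genes, and with Per2, against 11.4%. None of the 5 was called with Per3, Nr1d2 or Arntl, against 16.6%, 15.9% and 1.09%. A list of 5 is too short to show a lack of calls at those shares. Hlf, a D-box factor related to Dbp, and Csnk1d, a kinase of the period proteins, were called with none of the 7 (Hlf with Dbp r = 0.18, adjusted p = 0.271, and Csnk1d with Per2 r = 0.18, adjusted p = 0.359). Between stretches given batch, Clock (adjusted p = 1.70e-04) and Hlf (adjusted p = 0.0238) were called, 2 of 5 against 16.8% of all genes. None of the 5 was called between sexes, against 0.197% of all genes. Clock and Csnk1d were called between batches, 2 of 5 against 57.6% of all genes, and a list of 5 is too short to tell these shares apart.

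Per1 was set beside genes of its inducing signals, of which 1 of 9 listed activity genes and 1 of 6 listed glucocorticoid targets could be matched. Fosb, an immediate early gene induced by neuronal activity, correlated with Per1 at r = 0.66 (rho 0.67, adjusted p = 2.64e-08 in limma), at place 26 of 13047 genes, with 0.77, 0.87 and 0.61 within stretches 1, 2 and 3. Its log2 level ran from 7.43 through 10.30 to 11.22. With Per2 (r = 0.11), Dbp (-0.20), Nr1d1 (-0.11), Nr1d2 (-0.01) and Arntl (0.11) Fosb was not called over all rats. In stretches 1, 2 and 3 it was at 0.54, -0.22 and -0.29 with Nr1d1, 0.77, -0.13 and -0.25 with Nr1d2, and -0.24, -0.01 and 0.35 with Arntl. The slopes of Fosb on Nr1d1, Nr1d2 and Arntl were not called as different between stretches. Within the same stretches the correlation of Fosb was 0.44, 0.41 and -0.13 with Per2, and 0.52, -0.39 and -0.40 with Dbp, so these pooled values cover opposite signs. The slopes of Fosb on these 2 genes did not differ between stretches after adjustment (limma, adjusted p = 0.656 on Per2 and 0.521 on Dbp). With Per3 Fosb was negative over all rats (r = -0.32, adjusted p = 0.0268) but 0.31, -0.23 and -0.55 within the stretches. Sgk1, a target of the glucocorticoid receptor, correlated with Per1 at r = 0.38 (rho 0.38, adjusted p = 0.0254 in limma). It was called with none of the other 6 clock genes, with which 1.09% to 19.1% of all genes were called. A single gene cannot show a lack of calls at those shares. Within stretches 1, 2 and 3, Sgk1 was at 0.07, -0.32 and -0.43 with Dbp, -0.05, -0.52 and -0.23 with Per3, and -0.14, -0.05 and 0.44 with Arntl. Fosb, like Per3, differed between batches given stretch (adjusted p = 0.0110), and within stretch 3 it was 1.01 ± 0.24 (SE) lower in batch 6 than in batch 4 (adjusted p = 0.0166), where Per3 was higher.

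By the same adjusted correlation, over 81 rats and 13047 genes, the genes most like Dbp that were no member were ENSRNOG00000042717 (r = 0.83) and ENSRNOG00000019582 (r = 0.76), and those most opposed were ENSRNOG00000007916 (r = -0.78) and ENSRNOG00000028832 (r = -0.75). The tables used here give these identifiers no symbol.

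Some limits bear on single members. In textbook annotation the 3′ end of Nr1d1 overlaps Thra on the opposite strand, and whether the counting used strand is not stated, so reads of the overlap cannot be told apart. Thra could not be matched through the identifiers that the study's tables pair with symbols, so its level was not looked up. The libraries are bulk tissue, in which fewer cells expressing a gene and less RNA per cell cannot be told apart. The adjusted correlations gain nothing from the rat of batch 5, which has its own batch term.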

How the data were processed

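RNA-Seq libraries of IL tissue, 1 per HS rat, were analysed. The authors trimmed single-end reads with cutadapt, estimated counts per gene with RSEM against the Ensembl rat transcriptome (Rnor_6.0 per the labels), applied an upper-quartile adjustment with DESeq2 and deposited log2 values of the adjusted count plus 1, for 17252 genes and 81 libraries. Versions and strand were not given in the sources used here.

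Members were taken by identifier; the study's tables paired 1 of the 7 (Nr1d2) with a symbol, which was the same. The members and lists were chosen with earlier results of these data known. No column was left over. Sex and rat batch came from the labels, and column stretches from the order of column names. The labels do not link rats by litter or day, so p-values measure the spread between single rats.

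Because the values are log2, rounded and adjusted, no count model was used. Models were fitted with limma 3.58.1 (R 4.3.3) with an intensity trend and Benjamini-Hochberg adjustment over all genes tested, at a threshold of 0.05. Covariates were rat batch for sex, sex for batch, and sex, batch and stretch for covariation and adjusted correlations. Permutation p-values (numpy 2.4.6) are two-sided with 100000 resamples, over 70 pairs. Depth was recovered as each library's summed adjusted counts over the adjusted counts that 1 read was worth, searched between 0.52 and 4; 100% of adjusted counts under 100 were whole within 0.01. Intervals from depth cover counting error only.

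Genes named were the 7 members, list genes with a paired symbol, and the 2 genes most and the 2 least correlated with Dbp. Lists of neurons, interneurons, astrocytes, oligodendrocytes, microglia, endothelium, striatum, choroid plexus and the overlapping gene matched 0 identifiers and were not run. The activity list matched 1 of 9 and the glucocorticoid list 1 of 6. Matching went only through identifiers that the study's tables pair with symbols, so an unmatched gene may still be in the table. In simulated data for the sex test (17252 genes, independent normal values), limma recovered 100% of 200 genes shifted by 2 residual SD, with 16 false calls. For covariation it recovered 100% of 200 genes that moved by 1 residual SD per SD of the predictor, with 12. The planted shift was far larger than any sex difference of the members, so it does not give the power for these. The planted covariation was as large as the noise, and apart from it the genes were independent. Its recovery therefore does not give the power for the weaker pairs of members. Promoters are from RefSeq (GRCr8), and matches were searched as exact letters. Alternatives were a filter on low values, a pseudocount of 10, median centring, quantile normalization, other covariates, depth, subsets of rats and Spearman's rho.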

Additional observations from a re-analysis of the deposited data

Results flagged for a closer look

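In the 4 females of rat batch 2, Arntl was 9.81 in female 1 and between 9.41 and 9.46 in the other 3, so that the gap took up a share of 0.875 of their range. Female 1 was also the only rat of batch 2 in column stretch 2, and the part of the stretch was not tested for this rat. Of 28 combinations of gene and group of 4 to 10 rats examined, this was the only 1 marked, and chance marks about 1 in 20.

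The slopes of Clock and of Fosb on Per3 differed between column stretches (adjusted p = 0.0103 and 0.0313 in limma, with 8.93% of all genes called). The correlation of Clock with Per3 was 0.78 in stretch 1, -0.10 in stretch 2 and -0.15 in stretch 3, and that of Fosb with Per3 was 0.31, -0.23 and -0.55. Stretch and rat batch overlap in part. In batch 3, after sex, Clock with Per3 was 0.84 in the 7 rats of stretch 1 and -0.10 in the 15 of stretch 2, and Fosb with Per3 was 0.78 and -0.23. The slopes did not differ there after adjustment (limma, adjusted p = 0.476 for Clock and 0.366 for Fosb), in a comparison added after seeing the data. In the 15 rats of batch 2 in stretch 1, Clock with Per3 was 0.79, but Fosb with Per3 was only 0.004. The positive Fosb value of stretch 1 was thus not shared by its batches. In stretch 3, Clock with Per3 was -0.09 in the 24 rats of batch 4 and -0.53 in the 15 of batch 6. Fosb with Per3 was -0.40 and -0.86 there.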

How the results depend on the processing

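With the filter at a mean log2 of 5, pseudocount 10, median centring, quantile normalization, depth as a covariate or male 14 left out, the counts of clock genes called for sex (0), stretch given batch (0), batch given stretch (1) and sex by batch (0) did not change, and that for batch was 4 or 3. For batch, 56.3% to 69.6% of all genes were called under these settings. Positive ordered pairs called numbered 24 or 25 under these settings, 17 without covariates and 23 with 5 expression components, and negative pairs 7, 6 with median centring and 10 with the components. The share of all genes called also moved, so these counts are not comparable alone. With Per3 it was 16.6% in the main fit, 50.3% without covariates and 6.38% with the components. With Dbp it was 19.1%, 34.9% and 10.9%, and with Per1 2.97%, 2.73% and 3.1%. With fewer rats the counts fell: 7 positive and 0 negative in stretch 1 alone, 0 and 0 in stretch 2, and 9 and 3 in stretch 3. Over the 7 predictors, the share of all genes called ran from 0% to 16.5% in stretch 1. It ran from 0% to 0.748% in stretch 2 and from 0.0232% to 13.3% in stretch 3. Without covariates 7 slopes were no longer called: Dbp on Per2 and on Per3 (adjusted p = 0.191 and 0.289), Per1, Per2 and Per3 on Dbp (0.0629, 0.190 and 0.332), Nr1d1 on Per1 (0.0746) and Per2 on Nr1d1 (0.171). With 5 components Nr1d1 on Per1 (0.0689) and Per1 on Dbp (0.0876) were lost, and with median centring Arntl on Per2 (0.0539). Calls gained with the components were Arntl on Per3 (limma, adjusted p = 0.0082, 0.222 in the main fit), Per3 on Arntl (0.0222, 0.418), Per2 on Arntl (0.0138, 0.102) and Nr1d1 on Per2 (0.0172, 0.0534). The relation of Per3 with Arntl thus depended on the covariates. Nr1d1 on Per2 was also gained with the filter (0.0425) and without male 14 (0.0417).

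Slopes changed sign in single stretches, none of them called there. In stretch 1 they were Dbp on Per3 (-0.019), Per3 on Dbp (-0.011), Arntl on Per3 (0.080) and Per3 on Arntl (0.21). In stretch 2 they were Per3 on Per1 (-0.020), Per1 on Per3 (-0.10), Nr1d2 on Per3 (-0.24) and Per3 on Nr1d2 (-0.56). In stretch 3 they were Per3 on Per1 (-0.052), Per1 on Per3 (-0.086), Nr1d2 on Per1 (-0.10), Per1 on Nr1d2 (-0.33), Arntl on Per1 (0.0046) and Per1 on Arntl (0.022). The matching correlations with covariates were Per3 with Dbp (-0.014) and with Arntl (0.13) in stretch 1, Per1 with Per3 (-0.046) and Per3 with Nr1d2 (-0.37) in stretch 2, and Per1 with Per3 (-0.067), with Nr1d2 (-0.18) and with Arntl (0.010) in stretch 3. Without covariates they were Per1 with Per3 (-0.045 in stretch 2, -0.12 in stretch 3), Per1 with Nr1d2 (-0.061 in stretch 3) and Per3 with Nr1d2 (-0.37 in stretch 2). The cause was not tested. No paired analysis was possible because replicate numbers here only name rats.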
